A study of Rattus norvegicus with 4 samples.

Results

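Collagens, the proteins that bind to them and the enzymes that build and break down the matrix were read in the soleus, the slow postural muscle of the calf, of female rats. The members are the probe sets annotated to 44 listed symbols. Of these symbols 36 had a probe set on the array, with 62 probe sets among 8740 in all. Col5a3, Col18a1, Col4a1, Nid2, Fbn1, Thbs1, Thbs2 and Ccn2 were not measured here. A probe set is a group of short probes against 1 transcript, and its signal is the deposited intensity in arbitrary units. There were 57 member probe sets, for 34 genes, bright enough to be tested (mean signal of at least 21.0). The other 5, which include the probe sets of Nid1 and Mmp9, were not.

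Control rats (2 pools) had normal cage activity, and unloaded rats (2 pools) were kept from bearing weight on their hindlimbs for 10 h a day over 11 days. The 4 arrays were hybridised with RNA of 4 to 5 rats each, so a replicate is a pool and the spread is that between pools. No strain or age is given here, nor whether pools came from separate experiments, so p-values measure only the spread between these pools (n = 2 a group throughout). The tissue carried the transcripts of slow muscle in every pool, with the brightest probe set of Myh7, the slow myosin heavy chain, at 9534 to 11198 signal units and Tnni1, slow troponin I, at 4250 to 4725. Whole muscle also holds fibroblasts, vessels, nerve and tendon ends, and a lower signal from fewer cells cannot be told apart from less RNA per cell.

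Muscle fibres are wrapped in a basement membrane of laminins and type IV collagen, and bundled by connective tissue in which fibrillar collagens of types I and III carry the tension. Procollagen chains are hydroxylated by prolyl 4-hydroxylase and guarded by the chaperone Serpinh1 in the endoplasmic reticulum, and after secretion lysyl oxidase cross-links the fibrils. Small proteoglycans such as decorin set fibril width. Matricellular proteins such as Ccn1 and Sparc are signals and chaperones of the matrix more than load-bearing parts. Metalloproteases cut the matrix, and Timp proteins restrain them.

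The 3 members that fell, Serpinh1, P4ha1 and Ccn1, are shown first by the 250 bases before 1 transcript start of each, since they moved in the same direction. That start is the outer edge of the RefSeq gene model for Ccn1. It lies 201 bases inside the model for Serpinh1 and 60350 bases inside it for P4ha1, so these windows are not those before the outermost start, and which start the muscle uses was not measured. The sequences are from RefSeq (rat build GRCr8), written 5′ to 3′ on the strand of the gene. For Serpinh1 (chr1:163062977-163063226, minus strand), capitals mark the heat shock element motifs TTCNNGAA and GAANNTTC, each its own reverse complement. For P4ha1 (chr20:27844796-27845045, plus strand), they mark the hypoxia response core GCGTG. For Ccn1 (chr2:237225690-237225939, minus strand), they mark a TTCNNGAA motif, the core on the opposite strand and TATAAA.
Serpinh1: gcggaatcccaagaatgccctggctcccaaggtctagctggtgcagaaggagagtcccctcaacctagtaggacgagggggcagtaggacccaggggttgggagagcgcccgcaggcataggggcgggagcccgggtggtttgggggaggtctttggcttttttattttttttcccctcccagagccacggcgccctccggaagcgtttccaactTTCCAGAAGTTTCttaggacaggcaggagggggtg
P4ha1: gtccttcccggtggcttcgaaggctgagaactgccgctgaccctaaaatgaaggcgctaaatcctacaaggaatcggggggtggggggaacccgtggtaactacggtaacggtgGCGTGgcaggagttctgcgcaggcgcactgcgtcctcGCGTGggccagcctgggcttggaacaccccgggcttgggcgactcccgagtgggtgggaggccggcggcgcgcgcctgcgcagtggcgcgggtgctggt
Ccn1: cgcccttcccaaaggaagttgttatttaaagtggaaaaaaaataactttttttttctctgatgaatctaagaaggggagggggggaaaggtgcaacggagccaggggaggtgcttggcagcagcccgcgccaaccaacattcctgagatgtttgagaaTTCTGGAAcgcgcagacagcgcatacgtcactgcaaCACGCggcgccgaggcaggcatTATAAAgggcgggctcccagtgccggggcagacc

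In Serpinh1 both motifs were present and overlapped, starting 35 and 30 bases before the start. This pattern was held by 0.663% of 33469 windows of this length (either motif, 13.5%). The overlapping pair was not in the list of motifs set beforehand, and it was counted at the spacing found in Serpinh1. Its share is therefore a description only. P4ha1 held the core 99 and 136 bases before that inner start. At least 1 core (ACGTG or GCGTG, both strands) was held by 36.7% of windows, and at least 2 by 16%. In Ccn1 the TTCNNGAA motif lay 92, the core 56 and TATAAA 34 bases before the start, and 8.06% of windows held TATAAA on the forward strand. The CArG box was in none of the 3 windows and in 1.5% of all. Of 30 windows of 29 of the 44 listed members, measured or not, 5 held a heat shock motif, 1 (Serpinh1) the overlapping pair, 10 the core, 5 TATAAA and 1 (Lama2) a CArG box. Sparc, with 2 of 4 probe sets that rose, held none of these motifs in its window. Dcn and Lox have no entry. These are matches of letters, not measured sites, and no binding was measured.

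After repeated unloading the fibrillar collagens of the soleus gave estimates near 0, while genes that fold or cross-link collagen moved in opposite directions. Ccn1, P4ha1 and Serpinh1 fell. Of the probe sets of Lox and Dcn, 1 each rose, and of those of Sparc 2, while the brightest Sparc probe set read lower in both unloaded pools. In all, 4 of 57 member probe sets rose and 3 fell at an adjusted p under 0.05 (limma, Benjamini-Hochberg over 5257 probe sets), and 50 did not pass. Over all tested probe sets 5.25% passed, 2.59% higher and 2.66% lower, and the members' shares were 7.02% and 5.26%. Over the brightest tested probe set of each gene none of 34 members rose and 3 fell, against 2.54% and 2.16% of 3152 genes. At an unadjusted limma p under 0.05 there were 6 higher and 4 lower, against 336 and 291 of those 3152 genes. Over probe sets these counts were 12 and 4 of 57 members, against 542 and 550 of all 5257. The median log2 fold change, on log2(signal + 9) and unloaded minus control, was 0.04 over the members and 0.00 over all probe sets.

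These calls rest on all 4 arrays. Without control pool 1 none of the members passed by limma, with 6 higher and 4 lower at an unadjusted p under 0.05 in that fit. Without control pool 2 Dcn alone passed, without unloaded pool 1 Ccn1 alone, and without unloaded pool 2 Ccn1 with Fmod and Thbs4, neither of which passed on all arrays. Lox, Sparc, P4ha1 and Serpinh1 passed in none of these 4 fits. A fit on 3 arrays assumes that the lone pool varies like the others. Without a filter on dim probe sets Dcn alone passed, and the estimates stayed as they were. With a block for the pool number Ccn1, P4ha1 and Dcn passed. A 1.5-fold gap, taken on signal + 9, was asked for in all 4 pairs of an unloaded and a control pool. It was met by 1 tested member probe set upward (Dcn) and 2 downward (Ccn1 and P4ha1). Of all tested probe sets 1.31% met it upward and 1.67% downward (2.99% in either direction). Both unloaded pools lay above both controls on 19 member probe sets (33.3%) and below on 7 (12.3%), against 25.5% and 25.3% of all.

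**Figure D1:**
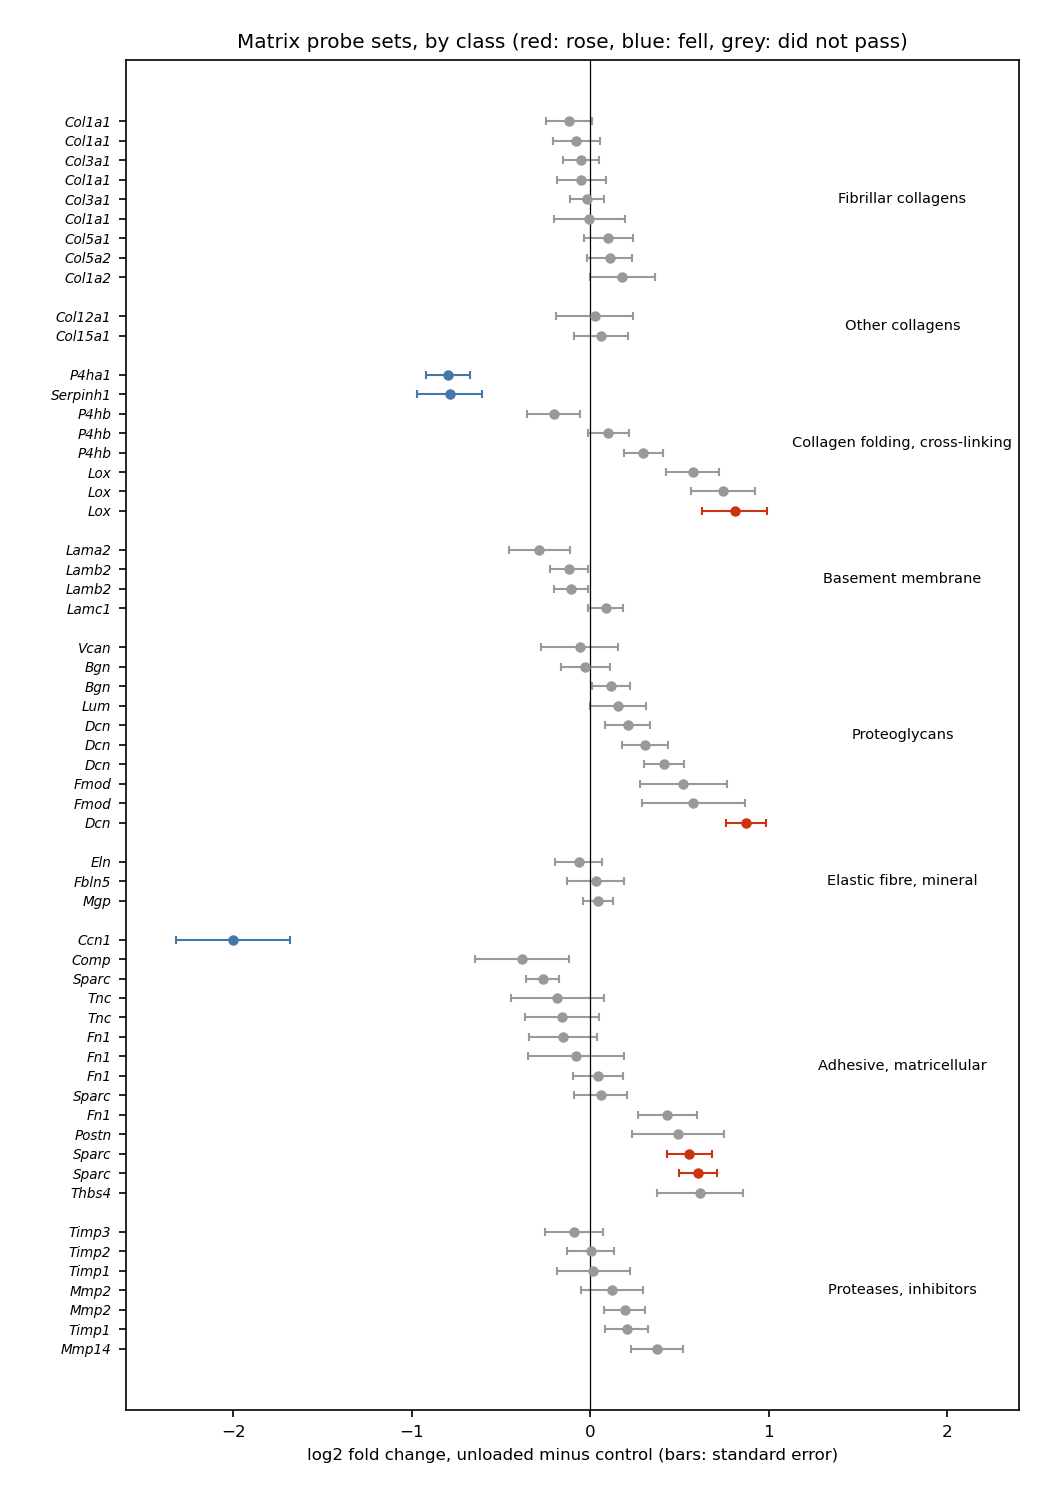
Log2 fold changes (unloaded minus control, x axis) with standard errors of the 57 tested matrix probe sets, 1 row per probe set, grouped by class. The collagen rows lie within 0.18 of 0, Ccn1 is farthest left at -2.00, and probe sets of Dcn and Lox are farthest right at 0.87 and 0.81.

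Fibrillar collagens, which bear tensile load, did not pass on any of 9 probe sets of 5 genes (0 at an unadjusted p under 0.05), with estimates from -0.12 to 0.18. Their median was -0.02, and 0.10 over the brightest probe set of each gene. The brightest Col1a1 probe set, for the alpha-1 chain of type I collagen, read 2256 and 2672 in the control pools and 2597 and 2086 in the unloaded pools. The groups overlapped, and the log2 fold change was -0.08 (SE 0.13, 95% interval -0.38 to 0.22). The other Col1a1 probe sets gave -0.12, -0.05 and -0.00. Col1a2, the partner chain, read 1432 and 1491 in controls and 2069 and 1327 in unloaded pools, so the control values lay between the unloaded ones (0.18, SE 0.18, interval -0.24 to 0.60). Col3a1, the collagen of pliable connective tissue, read 900.4 and 1013 against 928 and 958 on its brighter probe set (-0.02, SE 0.10, interval -0.24 to 0.21) and gave -0.05 on the other. Both unloaded pools lay inside the control range.

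Type V collagen, which seeds fibrils, behaved alike. Col5a1 read 108 and 122 in controls and 134 and 114 in unloaded pools (0.10, SE 0.14). Col5a2 read 269.7 and 325 against 342 and 299.8 (0.11, SE 0.13). In both genes unloaded pool 1 was highest and the groups overlapped. Col12a1, which decorates fibrils, read 52.3 and 45.2 against 62.9 and 38.9 (0.03, SE 0.22), and the groups overlapped. Col15a1, of the basement membrane zone, read 71.0 and 61.4 against 74.1 and 65.0, also with overlap (0.06, SE 0.15). Neither had an unadjusted p under 0.05. On all 11 collagen probe sets the groups overlapped, and changes within the intervals given could not be measured with these pools.

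Among the enzymes and chaperones of collagen 1 of 8 tested probe sets rose and 2 fell. Their median was 0.20, but -0.24 over the brightest probe set of each gene, where Lox counts once. P4ha1, the catalytic subunit of prolyl 4-hydroxylase, read 182 and 162 in controls and 96.7 and 93.7 in unloaded pools. The groups were far apart, and the unloaded pools nearly equal. It fell by 0.80 on the log2 scale (SE 0.12, limma adjusted p = 0.0120), or 1.74-fold. Without 1 array the estimate was -0.72 to -0.88 with adjusted p from 0.0623 to 0.106.

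Serpinh1, the collagen chaperone also called Hsp47, read 281 and 353 in controls and 214 and 149.7 in unloaded pools. Every unloaded value was under every control value, but pools of a group also differed. It fell by 0.79 (SE 0.18, adjusted p = 0.0493), close to the threshold, and by 0.54 without unloaded pool 2 (adjusted p = 0.227) against 1.03 without unloaded pool 1 (adjusted p = 0.0733). P4hb, the other subunit of the hydroxylase and a general disulfide isomerase, did not pass on 3 probe sets. Its brightest read 628 and 715 against 869.7 and 787 (0.30, SE 0.11, adjusted p = 0.167), with the unloaded pools above the controls, and the others gave 0.10 and -0.20. The brightest P4hb probe set thus had a sign unlike that of P4ha1, while the P4hb probe set at -0.20 shared it. The difference between the genes was not tested.

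Lox, lysyl oxidase, was higher in both unloaded pools than in both control pools on all 4 of its probe sets. The one that passed read 53.3 and 39.6 in controls and 97.6 and 78.2 in unloaded pools (0.81, SE 0.18, interval 0.39 to 1.23, adjusted p = 0.0469). Another read 40.4 and 38.6 against 84.5 and 61.6 (0.74, SE 0.18, adjusted p = 0.0576), and the third 74.7 and 72.4 against 126 and 103 (0.57, SE 0.15, adjusted p = 0.0655). Both missed the threshold narrowly. The dimmest, under the filter, read 2.5 and 2.4 against 10.8 and 11.6, and without the filter gave 0.82 (adjusted p = 0.0590). Averaged over its tested probe sets as 1 gene, Lox passed. That order alone is common among the tested probe sets, as given above.

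**Figure D2:**
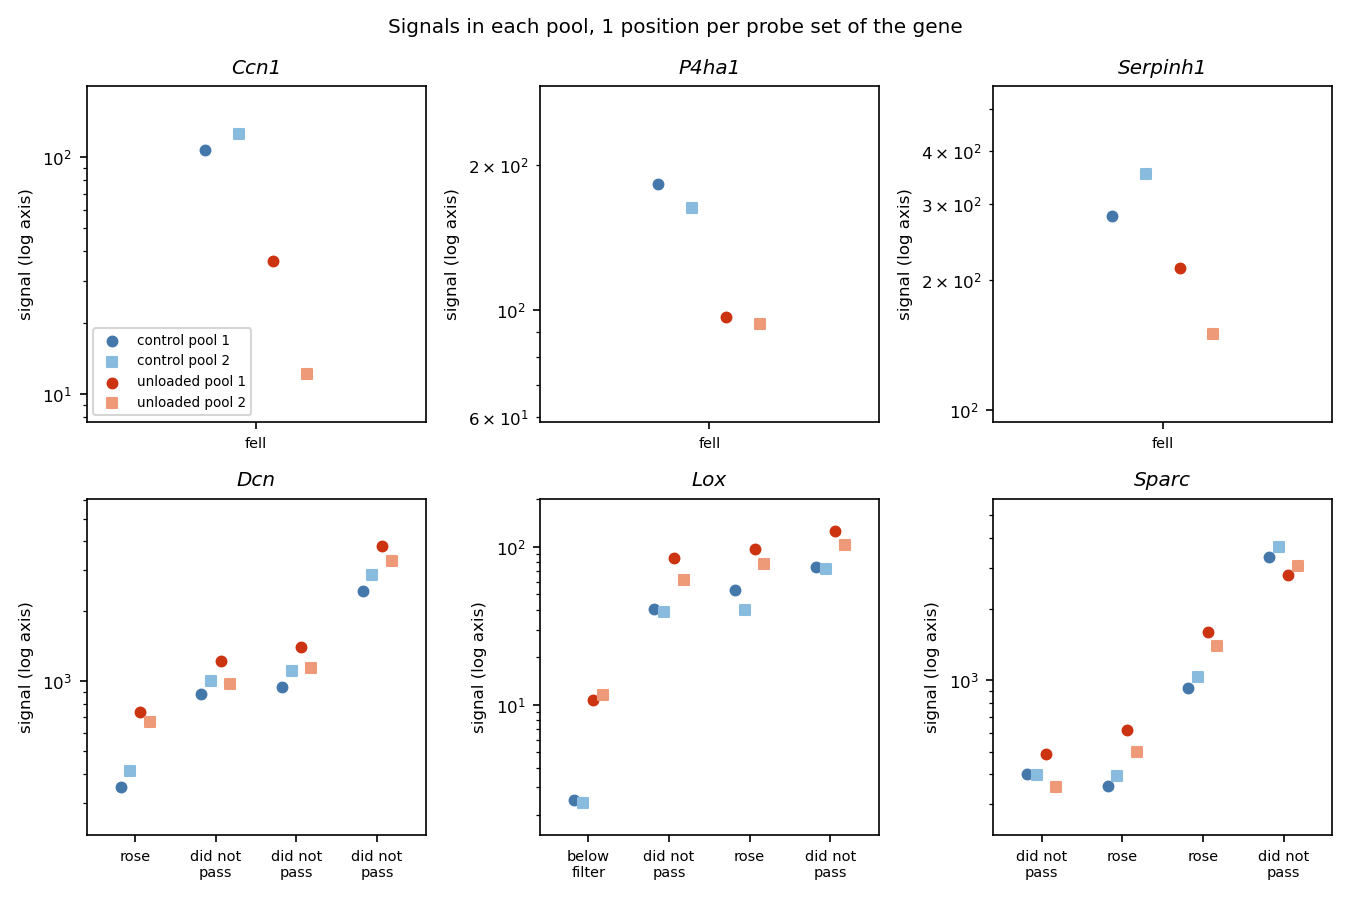
Signals (log y axis) in each of the 4 pools for the 6 genes with a probe set past the threshold, with 1 position per probe set ordered by mean signal. Blue points are control and red points unloaded pools. Both unloaded pools lie above both controls at all 4 Lox positions, while the brightest Sparc position has the opposite order to the 2 that rose.

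Basement membrane transcripts did not pass on 4 probe sets of 3 genes (0 at an unadjusted p under 0.05), and their median was -0.11. Lama2, the laminin alpha-2 chain that ties the fibre to its sheath, read 60.4 and 77.6 in controls and 59.6 and 50.1 in unloaded pools (-0.28, SE 0.17, interval -0.68 to 0.12). Lamb2, the laminin chain enriched at the synapse, read 421 and 431 against 400.5 and 389 (-0.11, SE 0.10), and gave -0.12 on its other probe set. Lamc1 moved the opposite way, at 434 and 451 against 455 and 487 (0.09, SE 0.10). The groups did not overlap on any of these 4 probe sets, 3 lower and 1 higher, yet the gaps were small, and 50.8% of all tested probe sets had no overlap. Nid1 read 3.40 to 4.20 in all pools, under the filter.

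Of 10 proteoglycan probe sets 1 rose and 9 did not pass. Their median was 0.26, and 0.07 without unloaded pool 1. Decorin (Dcn), which coats collagen fibrils and binds TGF-beta, gave 4 positive estimates. The probe set that rose read 350.3 and 411 in controls and 739 and 668 in unloaded pools, with a gap wider than the spread in either group. Its log2 fold change was 0.87 (SE 0.11, adjusted p = 0.00540, 1.83-fold). Without 1 array it was 0.76 to 0.99 with adjusted p from 0.0269 to 0.0855. The brightest, named from the same source sequence, read 2452 and 2865 against 3798 and 3283 (0.41, SE 0.11, adjusted p = 0.0830). The remaining ones gave 0.31 (SE 0.13) and 0.21 (SE 0.13), and on the latter the groups overlapped. With 1 pool left out these gave 0.16 to 0.46 and 0.05 to 0.37, in each case lowest without unloaded pool 1. The Dcn estimates thus ran from 1.16-fold to 1.83-fold, and the difference between probe sets was not tested. Averaged over its probe sets as 1 gene, Dcn did not pass.

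Fibromodulin (Fmod), a fibril-binding proteoglycan of tendon, did not pass and rested on 1 pool. Its probe sets read 212.5 and 192 in controls and 446 and 209 in unloaded pools, and 203 and 183 against 382 and 206. Unloaded pool 1 stood far above the other pools on both, and unloaded pool 2 lay near the controls. The estimates were 0.58 (SE 0.29, adjusted p = 0.303) and 0.52 (SE 0.24, adjusted p = 0.275), and without unloaded pool 1 the change from the control mean was 0.05 and 0.09. Lumican (Lum), its relative, read 168 and 187 against 232 and 170.1 (0.16, SE 0.16). Biglycan (Bgn) gave 0.12 and -0.03, and Vcan, the large hyaluronan-binding versican, read 20.1 and 28.0 against 24.5 and 20.7 (-0.06, SE 0.22).

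Elastic fibre genes and the calcification inhibitor Mgp did not pass on any of 3 probe sets (0 at an unadjusted p under 0.05). Mgp read 2047 and 2130 in controls and 2132 and 2175 in unloaded pools (0.04, SE 0.08, interval -0.15 to 0.24). Eln, elastin, gave -0.06 (SE 0.13) and Fbln5, which helps elastin assemble, 0.03 (SE 0.16).

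In the adhesive and matricellular class 2 of 14 probe sets rose, 1 fell and 11 did not pass, with estimates from -2.00 to 0.61. Ccn1, a secreted integrin ligand that cells induce quickly, read 107 and 124 in controls and 36.3 and 12.2 in unloaded pools. Both unloaded pools were far below the controls, and they differed from each other more than the controls did. It fell by 2.00 (SE 0.32, adjusted p = 0.0126), or 4.01-fold, the largest change among the tested members. The size depends on the offset, with -1.38 at an offset of 34.8 and -2.39 at an offset of 1. It was -1.45 without unloaded pool 2 and -2.55 without unloaded pool 1, which both passed, and did not pass without control pool 1 (adjusted p = 0.0981) or control pool 2 (0.123).

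Sparc, the collagen-binding glycoprotein osteonectin, gave opposite orders on different probe sets. The brightest read 3344 and 3669 in controls and 2793 and 3035 in unloaded pools, lower in both (-0.27, SE 0.09, adjusted p = 0.162). The second read 933 and 1038 against 1605 and 1401, and rose by 0.60 (SE 0.11, adjusted p = 0.0183). Another read 358 and 392 against 617 and 499, and rose by 0.56 (SE 0.13, adjusted p = 0.0464). The last read 401 and 396 against 488 and 354, with overlap (0.06, SE 0.15). No single direction can be given for Sparc from these 4 probe sets, and which part of the transcript each reads was not analysed here. Averaged over them as 1 gene, Sparc did not pass.

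Thbs4, a thrombospondin of tendon and muscle matrix, read 603 and 647 in controls and 1306 and 705 in unloaded pools (0.61, SE 0.24, adjusted p = 0.202). Postn, periostin, read 142 and 139 against 280.5 and 144 (0.49, SE 0.26, adjusted p = 0.328). In both genes nearly all of the difference came from unloaded pool 1, with 1.05 and 0.95 for pool 1 against 0.17 and 0.03 for pool 2, each relative to the control mean. Comp, the cartilage and tendon thrombospondin, read 105 and 114 against 115 and 57.4 (-0.38, SE 0.26), with unloaded pool 2 the low one.

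Fn1, fibronectin, read 499 and 547 in controls and 853 and 587 in unloaded pools on its brightest probe set (0.43, SE 0.17, adjusted p = 0.191). Without unloaded pool 1 this was 0.17, and without unloaded pool 2 0.70. The other 3 tested gave -0.15 to 0.04, so the higher reading was seen on 1 of 4. The dimmest was under the filter. Tnc, tenascin-C, which is known to respond to load, read 80.0 and 74.1 against 47.1 and 93.3 (-0.18, SE 0.26), with the controls between the unloaded pools. Its second tested probe set gave -0.16 (SE 0.21).

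Proteases and their inhibitors did not pass on any of 7 probe sets of 5 genes, and 1 had an unadjusted p under 0.05. That was Mmp14, the membrane-bound activator of Mmp2, at 59.4 and 56.4 in controls and 83.5 and 72.3 in unloaded pools (0.37, SE 0.15, adjusted p = 0.202). Mmp2, gelatinase A, read 228 and 259 against 292 and 267 (0.19, SE 0.12), with the unloaded pools above the controls by little. Its other probe set read 47.3 and 50.2 against 46.9 and 61.8, with overlap (0.12, SE 0.17). Mmp9, gelatinase B, read 3.90 and 5.10 against 14.1 and 14.4. The groups were apart and the pools of a group alike, but all values were under the filter, and without it Mmp9 gave 0.79 (adjusted p = 0.0952). Timp2, an inhibitor that also takes part in Mmp2 activation, read 484 and 564 in controls and 581 and 472 in unloaded pools. The controls lay between the unloaded pools (0.00, SE 0.13, interval -0.30 to 0.31). Timp1 gave 0.20 (SE 0.12) and 0.02, and Timp3 -0.09 (SE 0.16).

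The unloaded pools differed from each other across the matrix genes. Unloaded pool 1 was above unloaded pool 2 on 47 of 57 member probe sets (82.5%), against 48.1% of all tested probe sets. The median difference, pool 1 minus pool 2, was 0.23 on the log2 scale for the members and -0.01 over all. The largest were those of Ccn1 (1.09), one Fmod probe set (1.06), Postn (0.92), Comp (0.91) and Thbs4 (0.88), and the largest opposite one was that of Tnc (-0.87). In controls pool 1 was above pool 2 on 19 of 57 (33.3%, against 50.9% of all), with a median of -0.11. Against the control mean the member median was 0.16 in unloaded pool 1 and -0.01 in unloaded pool 2. For the fibrillar collagens the corresponding medians were 0.16 and -0.14, of unlike sign. For collagen folding and cross-linking they were 0.26 and 0.14, and for proteoglycans 0.41 and 0.07. Either unloaded pool was above both controls on the 4 Lox probe sets and on 3 of 4 Dcn probe sets, and P4ha1 was below the control mean by 0.78 and 0.82.

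**Figure D3:**
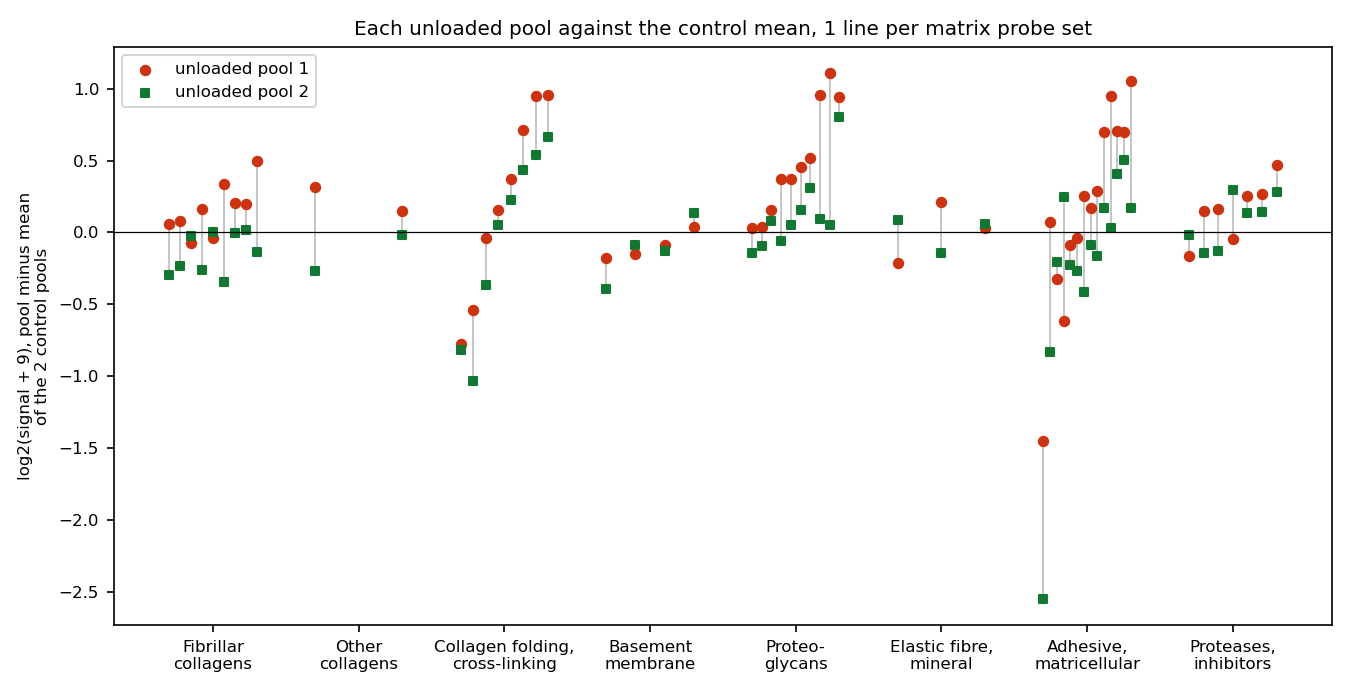
Log2(signal + 9) of unloaded pool 1 (circles) and unloaded pool 2 (squares) minus the mean of both control pools, with a line joining the pools for each of the 57 tested matrix probe sets. Circles lie above squares on 47 of the 57 lines, and the fibrillar collagens straddle 0.

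Some marker levels also differed between the unloaded pools. Summed over the brightest probe set of each gene, 5 of 8 fibroblast markers that are not members gave 1372 and 1582 signal units in controls and 1645 and 1425 in unloaded pools. For 6 of 8 soleus muscle markers the sums were 46560 and 46640 in controls and 42740 and 48230 in unloaded pools. Unloaded pool 1 thus had the highest fibroblast and the lowest muscle sum. The fibroblast markers did not all share that rank. S100a4 (306.7 against 220.9) and Thy1 (95.3 against 88.7) read higher in unloaded pool 1 than in control pool 2. Vim (1046.3 against 1065.5), Pdgfra (164.0 against 168.9) and Pdgfrb (33.1 against 37.7) read lower. On 5 of 6 tested fibroblast probe sets unloaded pool 1 was above pool 2, and on 1 of 10 muscle probe sets. None of these 16 probe sets passed between the groups. The pattern was not particular to fibroblast markers, since the leukocyte sum also read higher in unloaded pool 1 than in pool 2 (573 against 472). The smooth muscle, endothelial, Schwann cell and adipocyte sums read lower in unloaded pool 1 than in pool 2. None of 3 tendon markers had a probe set here. The part of these markers in the matrix results was not tested.

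**Figure D4:**
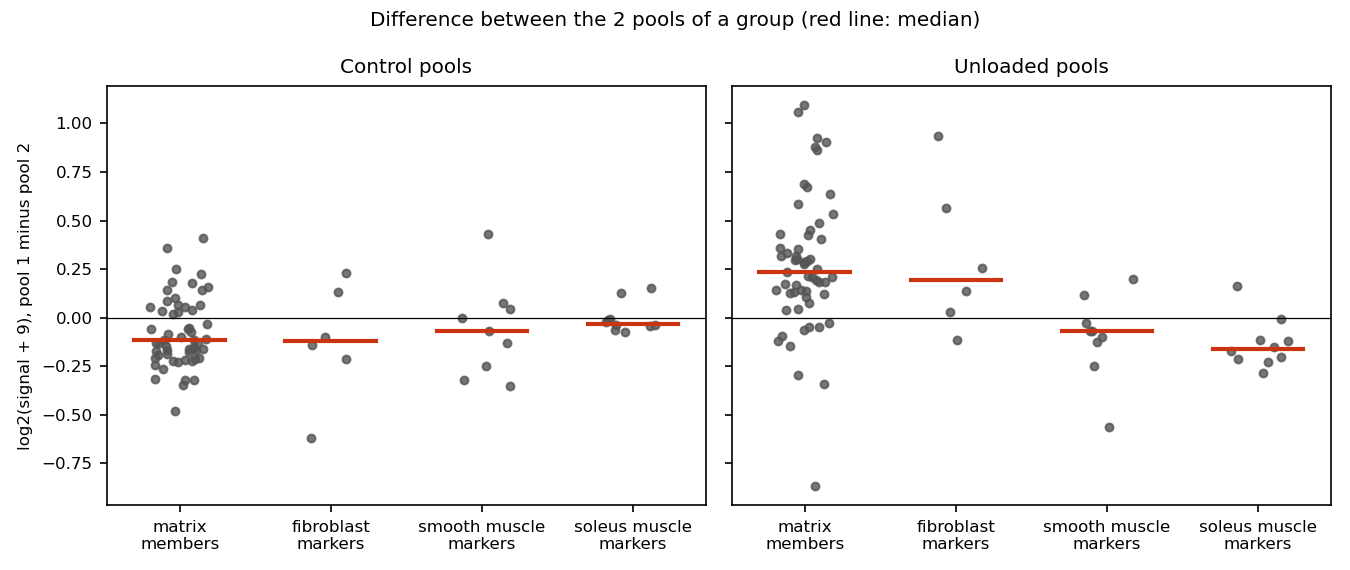
Pool 1 minus pool 2 of log2(signal + 9) within the control group (left) and the unloaded group (right), 1 point per tested probe set, with the median in red. In the unloaded group the medians are 0.23 for matrix members, 0.20 for fibroblast markers, -0.07 for smooth muscle markers and -0.16 for soleus muscle markers.

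Other genes of the matrix were read from a wider list of 113 symbols, of which 70 had a probe set and 52 were tested on 64 probe sets. None rose and 2 probe sets fell by limma (3.1% lower, against 2.66% of all tested probe sets). At an unadjusted limma p under 0.05 there were 3 higher and 8 lower, against 542 and 550 of all 5257. Smad7, the inhibitor of TGF-beta receptors that the pathway itself induces, read 59.1 and 54.0 in controls and 11.6 and 14.7 in unloaded pools. The groups were far apart, and it fell by 1.57 (SE 0.19, adjusted p = 0.00433). The size depends on the offset, with -0.93 at 34.8 and -2.03 at 1, both past the threshold. Sdc4, a cell-surface proteoglycan of focal adhesions, read 985 and 918 against 577 and 721 and fell by 0.55 (SE 0.12, adjusted p = 0.0429). Another probe set, about as bright, gave -0.18 (SE 0.21) with overlap. The dimmest, under the filter, read 16.0 and 10.3 against 17.2 and 24.6, with both unloaded pools above both controls. With any 1 pool left out Sdc4 did not pass (adjusted p from 0.063 to 0.217), and Smad7 did not without control pool 1 (0.0638) or control pool 2 (0.0561). The remaining 16 of 17 tested TGF-beta axis probe sets did not pass, nor did any of 8 for collagen processing, 5 for other collagens, 3 for other laminins and basement membrane, 7 for matrix glycoproteins and 14 for other proteases and inhibitors.

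Col8a1, a short-chain collagen chosen after its values were seen, narrowly missed the threshold. It read 41.1 and 53.5 in controls and 25.1 and 19.1 in unloaded pools, lower in both (-0.85, SE 0.20, adjusted p = 0.0549).

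Within collagen processing, and chosen after their values were seen, the lysyl hydroxylases beside P4ha1 in the pathway gave -0.10 (Plod1), -0.04 (Plod2) and -0.05 and 0.09 (both Plod3 probe sets). None passed, and the groups overlapped on all 4. Loxl1, the relative of Lox, read 149.9 and 124 in controls and 185 and 178 in unloaded pools (0.39, SE 0.13, adjusted p = 0.148) and gave 0.36 (SE 0.16) on its other probe set. The unloaded pools were above the controls on both.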

How the data were processed

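The authors deposited linear intensity values, 1 per probe set and array. MAS5 is the tool that the submitters' processing notes name for them, with no settings. Their 2% trimmed mean was 150.0 on every array, and such scaling hides any change in total RNA. Small signals vary widely between arrays under MAS5. Of 8799 probe sets 59 controls were left out. Names came from the platform annotation, with symbols updated by gene ID to RefSeq (GRCr8): 7006 had 1 symbol, 308 several and 1426 none. No member symbol was on a probe set with several.

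The deposited intensity was transformed as log2(signal + 9), 9 being the 25th percentile, and probe sets under the 40th percentile of mean signal (21.0) were not tested. Unloaded and control pools were set against each other by limma 3.58.1 under R 4.3.3 (lmFit, then eBayes with a trend, 2 residual and 5.80 prior degrees of freedom), adjusted by Benjamini-Hochberg over all tested probe sets. The steps were tested on simulated data. No detection calls or array batches were used. Python 3.11.15 and matplotlib 3.10.9 made the plots.

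The members and lists were chosen with earlier results of these data known. Every member is accounted for. Values in every pool are given for members with a probe set past the threshold and for those 1.5-fold apart in all pairs on signal + 9. They are also given for each fibrillar collagen and for the brightest member of each other class. Some further members were given this way after their values were seen. Of the wider matrix list, genes past the threshold are named. Alternatives were other offsets, filters, normalizations and thresholds, no trend, a block for the pool number, leaving out each pool, and genes in place of probe sets. Each unloaded pool was set against the controls as an alternative chosen after seeing the data.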

Additional observations from a re-analysis of the deposited data

How the results depend on the processing

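Of all probe sets 136 rose and 140 fell, of the members 4 and 3, and of the wider matrix list 0 and 2. Without a filter the counts were 42 and 48, 1 and 0, and 0 and 1. Without a mean-variance trend they were 52 and 61, 1 and 1, and 0 and 1. With quantile normalization 2 members rose, and 1 of the wider list fell, as 1 did with a filter at the 60th percentile. At a threshold of 0.10, 226 and 232 of all passed, and 7 members rose. With genes as features 88 of all genes fell and 1 member rose. Leaving out 1 pool gave 22 to 43 higher and 38 to 55 lower over all, 0 to 2 higher and 0 to 1 lower among the members, and 0 to 1 lower in the wider list. With the pool number as a replicate block 78 and 87 passed over all, 1 and 2 among the members and 1 lower in the wider list. Pools of the same number did not deviate together (r = -0.0438 over probe sets), so the numbers are not taken as pairs. The member median was -0.01 to 0.16 over its alternatives. No member probe set past the threshold changed sign under any alternative run on it, but 26 of the 50 others did, nearly always with 1 pool left out. Over those fits Col1a1 spanned -0.234 to 0.081, -0.348 to 0.34, -0.297 to 0.061 and -0.262 to 0.162, Col1a2 -0.138 to 0.499, Col3a1 -0.103 to 0.066 and -0.108 to 0.006, Col5a1 -0.003 to 0.207, Col5a2 -0.022 to 0.24, Col12a1 -0.267 to 0.319 and Col15a1 -0.029 to 0.156. Proteoglycans and elastic fibre genes that crossed 0 were Bgn (-0.14 to 0.087), Lum (-0.06 to 0.371), Vcan (-0.23 to 0.116), Eln (-0.211 to 0.084) and Fbln5 (-0.146 to 0.209). Adhesive genes were Comp (-0.833 to 0.074), Tnc (-0.616 to 0.25), the Sparc probe set whose groups overlapped (-0.165 to 0.285) and Fn1 (-0.084 to 0.169, -0.311 to 0.005 and -0.416 to 0.257). Mmp2 spanned -0.047 to 0.294, Timp1 -0.223 to 0.259, Timp2 -0.144 to 0.15 and Timp3 -0.294 to 0.117. In the wider list Plod1 spanned -0.239 to 0.046, Plod2 -0.176 to 0.089, Plod3 -0.098 to 0.278 and -0.135 to 0.033, and the second Sdc4 probe set -0.499 to 0.138. With median scaling 1 Col1a1 probe set gave 0.025, 1 of Col3a1 0.011 and 1 of Bgn 0.001, and with quantile normalization that Col1a1 probe set gave 0.001. Class medians near 0 also changed sign in some. That of collagen folding and cross-linking was -0.24 with the brightest probe set of each gene and -0.36 with genes as features, where Lox counts once. What limits these data is 2 pools a group and dim signals near the offset, as for Mmp9 and the dimmest Lox probe set. Calls were lost in fits with fewer arrays or more probe sets. They were also lost on the same arrays and probe sets, without a trend and with a replicate block. The cause of the lost calls was not tested.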

Other observations

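Markers of the other cells that whole soleus holds gave these values between the groups. Of 9 tested smooth muscle probe sets 1 rose, an Acta2 probe set (smooth muscle actin) that read 121 and 153 in controls and 226 and 270.3 in unloaded pools (log2 fold change 0.82, SE 0.15, limma adjusted p = 0.0221). It did not pass with any 1 pool left out (adjusted p from 0.0597 to 0.172). Brighter Acta2 probe sets gave 0.25 (SE 0.109, limma adjusted p = 0.242) and 0.40 (SE 0.095, adjusted p = 0.0554), and did not pass. The summed signal of 5 of 5 smooth muscle markers was 5119 and 5244 in controls and 5272 and 5572 in unloaded pools. Most of this sum was Des, at 4150 and 4157 in controls and 4067 and 4266 in unloaded pools. How much of Des came from muscle fibres was not measured. On the brightest probe sets of Acta2, Myh11 and Cnn1 both unloaded pools were above both controls, and on that of Tagln the groups overlapped. None of 4 endothelial, 7 leukocyte, 3 Schwann cell and 4 adipocyte probe sets passed. Endothelial sums (4 of 7 markers) were 369.8 and 372 in controls and 316 and 343 in unloaded pools. Leukocyte sums (5 of 7) were 392 and 584 against 573 and 472, Schwann cell sums (3 of 5) 576 and 626 against 544 and 558, and adipocyte sums (4 of 5) 1338 and 1571 against 1254 and 1475.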
